A study of Homo sapiens with 12 samples.

Results

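The unfolded protein response is the programme by which a cell adjusts the folding capacity of its endoplasmic reticulum (ER), the compartment in which secreted and membrane proteins are folded. The 10 genes described here are XBP1, ERN1, ATF6, EIF2AK3, PDIA4, CALR, SDF2L1, MANF, CRELD2 and HERPUD1, found in the tables by symbol from a list drawn up with earlier results of these data known. All 10 were found in both expression tables, among 60314 symbols that the tables share, and all 10 passed the filter on low values in both lines. RNA was sequenced from 2 human prostate cancer lines that grow without androgen, C4-2B, which descends from LNCaP cells, and 22RV1. The labels give both lines as wild type. Cells of every group were kept in glutamine-free RPMI medium with fetal bovine serum, and all were given 2 mM of L-glutamine for 48 h. For the C4-2B control and 22RV1 control groups the sample titles name no further treatment, and whether a vehicle was added is not stated there. The C4-2B 56-mer and 22RV1 56-mer groups also received 50 nM of the 56-mer. By the series title it is an aptamer, that is, a single-stranded nucleic acid that folds into a shape able to bind a target. Each of the 4 groups had 3 libraries, which the series text calls biological triplicates.

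The 3 sensors are ER membrane proteins that respond to unfolded protein. The kinase and ribonuclease IRE1 (gene ERN1) cuts XBP1 mRNA so that an active transcription factor is made, the kinase PERK (gene EIF2AK3) phosphorylates the initiation factor eIF2 alpha and so lowers translation while favouring that of ATF4, and ATF6 is cleaved in the Golgi to release a transcription factor. XBP1 and ATF6 induce ER chaperones and components of ER-associated degradation, which returns misfolded proteins to the cytosol for destruction. Secretory epithelia such as the prostate gland, which exports proteases and other proteins, carry a large ER load. The sensors act through cleavage, phosphorylation and splicing, none of which a count per gene shows, so the values below are amounts of RNA.

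The splicing step is shown first, because the XBP1 values below add up both mRNA forms. GENCODE 29 holds XBP1 transcripts with and without a stretch of 26 bases on the minus strand of GRCh38, chr22:28796124-28796149. The stretch is in capitals, with the neighbouring mRNA bases in lower case. A second annotated transcript places the gap 2 bases further on, which leaves the same joined sequence.
XBP1 mRNA around the 26 bases: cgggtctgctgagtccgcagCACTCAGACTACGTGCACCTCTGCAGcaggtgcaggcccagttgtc

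Promoters of this pathway are known for the ER stress response element (ERSE), bound by ATF6 together with the factor NF-Y, and for a shorter form, ERSE-II. An ERSE was searched as CCAAT and CCACG with any 9 bases between them, and an ERSE-II as ATTGG and CCACG with any 1 base between them. Both strands were read in RefSeq windows on GRCh38.p14 that reach from 250 bases before to 50 bases after each start site, and windows were found for all 10 genes, XBP1 and PDIA4 with 2 each. An exact ERSE was present in 3 of the 10 genes, XBP1, CALR and CRELD2, and in 0.0769% of 35116 windows over all genes. An exact ERSE-II was present in 2, HERPUD1 and SDF2L1, and in 0.0541% of all windows. Both patterns contain a CCAAT box on one strand, and this box alone was present in 9 of the 10 genes, all except ATF6, and in 34.6% of all windows. A match is a description of letters and says nothing about binding in these cells. The 5 stretches are given 5′ to 3′ on the strand of the gene, with the fixed letters of the pattern in capitals.
XBP1, ERSE, chr22:28800583-28800641, minus strand: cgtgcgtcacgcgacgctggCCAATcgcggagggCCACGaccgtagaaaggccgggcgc
CALR, ERSE in reverse, chr19:12938364-12938422, plus strand: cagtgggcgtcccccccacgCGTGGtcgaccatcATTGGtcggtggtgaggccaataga
CRELD2, ERSE in reverse, chr22:49918534-49918592, plus strand: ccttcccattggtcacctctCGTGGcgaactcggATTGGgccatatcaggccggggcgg
HERPUD1, ERSE-II, chr16:56932005-56932055, plus strand: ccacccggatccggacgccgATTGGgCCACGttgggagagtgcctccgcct
SDF2L1, ERSE-II in reverse, chr22:21642094-21642144, plus strand: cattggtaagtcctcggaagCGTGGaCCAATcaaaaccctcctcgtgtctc

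Reads worked out from the deposited values numbered 8847368 to 13740386 per library. All 9 prostate luminal markers on the list used here, KLK3 and the keratins KRT8 and KRT18 among them, passed the filter in both lines. Of 13 leukocyte, endothelial and fibroblast markers, 3 passed in C4-2B, namely CD68, VWF and COL1A1. In 22RV1 5 passed, namely CD68, COL1A1, COL1A2, COL3A1 and LUM. The summed level of all 13 was 43.8 to 66.2 RPM, reads per 1000000 reads of a library, in C4-2B controls. With 56-mer it was 44.4 to 55.1, against 29.9 to 34.5 and 30.3 to 41.7 in 22RV1. At 0 in every library of a line were 5 of the 13 in C4-2B and 2 in 22RV1, the T cell gene CD3E in both. The libraries also carried trends shared by many genes, seen as Spearman rho between exon length or GC content and each gene's deviation from its line's average. In C4-2B the rho with length over 10457 genes was −0.310 in 56-mer 1 and −0.0846 to 0.217 in the other libraries, and for GC content it was 0.304 and 0.318 in the 56-mer 2 and 3 libraries, against −0.209 to −0.0049 elsewhere. In 22RV1 the rho with GC content over 12276 genes was −0.583 in 56-mer 1, against −0.143 to 0.378 in the others.

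In untreated cells the folding genes were abundant and the sensors were not. CALR, which encodes the glycoprotein chaperone calreticulin, had the highest level per length of the 10 genes in both lines, at 521 ± 5.75 RPKM, that is, RPM divided by kilobases of exon (SD, n = 3), in C4-2B controls and 335 ± 14.8 in 22RV1 controls. PDIA4, a protein disulfide isomerase also called ERp72, came next with 154 ± 3.28 and 165 ± 12.3. The chaperone cofactor SDF2L1 followed in both lines with 79.96 ± 1.42 and 42.9 ± 5.74, and then XBP1 with 54.0 ± 5.72 and 35.4 ± 2.71. On this scale MANF, a small secreted ER protein that protects neurons and other cells, had 36.8 ± 3.38 and 32.0 ± 4.67. CRELD2, a disulfide-rich ER protein, had 27.4 ± 2.06 and 31.5 ± 2.97, and HERPUD1, a membrane component of the degradation machinery, 19.3 ± 0.903 and 22.9 ± 2.28.

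The 3 sensor genes stood at the bottom of the order in both lines. ATF6 had 5.30 ± 0.407 RPKM in C4-2B controls and 10.4 ± 1.43 in 22RV1 controls. ERN1 had 3.25 ± 0.619 and 3.93 ± 0.254, and EIF2AK3 2.70 ± 0.683 and 4.31 ± 0.154. In C4-2B the ranges of neighbours in the order overlapped for 1 pair only, ERN1 and EIF2AK3. In 22RV1 the neighbours SDF2L1, XBP1, MANF and CRELD2 overlapped each with the next, and EIF2AK3 lay just above ERN1, the reverse of C4-2B. Lengths are the union of all annotated exons in GENCODE 29, so a gene appears lower than it would on any shorter transcript of its own.

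**Figure D1:**
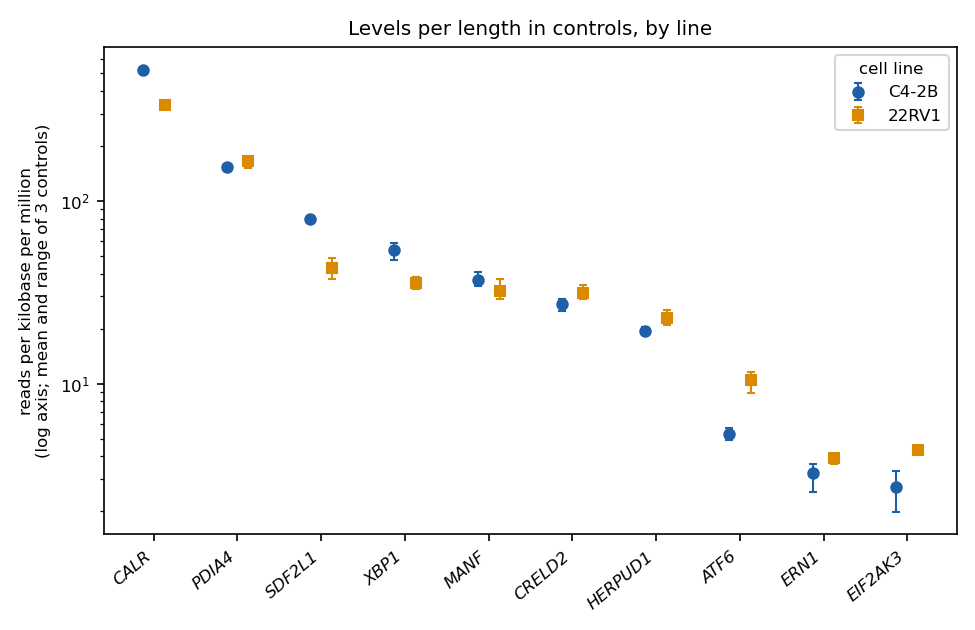
Control levels of the 10 genes in RPKM (log axis), as the mean and range of 3 control libraries, with C4-2B as circles and 22RV1 as squares. CALR is at 521 and 335, and the sensors ATF6, ERN1 and EIF2AK3 lie between 2.70 and 10.4.

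Most of the 10 genes differed in level between the lines, as most of all genes did. Each table was normalized on its own by the authors, so levels are set side by side in RPM and were not tested. In such bulk libraries, fewer cells that express a gene and less of its RNA per cell cannot be told apart. XBP1 was at 163 ± 17.3 RPM in C4-2B controls and 107 ± 8.20 in 22RV1 controls, CALR at 1413 ± 15.6 and 909.8 ± 40.1, and SDF2L1 at 87.9 ± 1.56 and 47.2 ± 6.31. These 3 genes were higher in every C4-2B control than in any 22RV1 control, by 1.52-, 1.55- and 1.86-fold. The 3 sensors went the other way. ATF6 was 1.97-fold higher in 22RV1 (82.2 ± 11.3 against 41.8 ± 3.21), EIF2AK3 1.60-fold (23.4 ± 0.839 against 14.7 ± 3.71) and ERN1 1.21-fold (42.7 ± 2.76 against 35.3 ± 6.72), all without overlap. In ERN1 the lowest 22RV1 control, at 39.6 RPM, was only just above the highest of C4-2B, at 39.3. HERPUD1 was 1.18-fold higher in 22RV1 without overlap. PDIA4, MANF and CRELD2 overlapped between the lines. Thus 7 of the 10 genes did not overlap, where 76.5% of 15527 genes tested in both lines did not, a share close to that of the 10 genes. The 4 that were higher in 22RV1 compare with 46.4% of all genes, and the 3 higher in C4-2B with 30.1%.

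Levels of 8 other pathway genes in the untreated lines are given for context. The ER chaperone BiP (gene HSPA5) was 1.60-fold higher in 22RV1 controls, at 852 ± 48.0 against 534 ± 14.6 RPM. HSP90B1, which encodes the chaperone GRP94, was 1.41-fold higher in 22RV1, HYOU1, an exchange factor for BiP, 1.28-fold, DNAJB9, an XBP1 target and BiP co-chaperone, 1.59-fold, and EDEM1, a lectin-like degradation factor, 1.36-fold. PPP1R15A, which encodes the phosphatase subunit GADD34 that reverses PERK signalling, was 3.85-fold higher in 22RV1, at 54.5 ± 4.45 against 14.1 ± 2.77 RPM. In contrast ATF4 was 2.31-fold higher in C4-2B (850.2 ± 23.3 against 368 ± 14.2) and DDIT3, which encodes the pro-apoptotic factor CHOP, 2.46-fold (133 ± 10.98 against 54.2 ± 1.96). None of these 8 genes overlapped between the lines, 6 being higher in 22RV1 and 2 in C4-2B, beside the 76.5% of all genes without overlap, 46.4% and 30.1% in those directions. The genes higher in C4-2B were thus CALR, SDF2L1, XBP1, ATF4 and DDIT3, and those higher in 22RV1 included the sensors, BiP, GRP94 and GADD34.

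The comparison of 56-mer with control asks whether the aptamer moves this programme in cells supplied with glutamine. None of the 10 genes passed the limma test over all genes (adjusted p under 0.05) in either line, where 0.066% of 16657 tested genes passed in C4-2B and 0.00975% of 20517 in 22RV1. In C4-2B 3 of the 10 had an unadjusted p under 0.05, namely SDF2L1, MANF and ERN1, where 8.92% of all tested genes had one. In 22RV1 0 of the 10 did, where 3.91% of all tested genes did. With edgeR 0 members passed in either line, where 0% of all genes passed in C4-2B and 0.00975% in 22RV1. At an unadjusted p under 0.05 edgeR had 3 members in C4-2B and 0 in 22RV1, beside 8.06% and 3.72% of all genes. With DESeq2 SDF2L1 passed in C4-2B, where 0.252% of all genes passed, and 0 members in 22RV1, where 0.0146% did. At an unadjusted p under 0.05 DESeq2 had 3 and 0 members, beside 7.91% and 3.23% of all genes. In C4-2B 7 members had a positive fitted change and 3 a negative one, with a median log2 change of 0.029, against −0.011 over all tested genes. In 22RV1 8 were positive and 2 negative, with a median of 0.055 against −0.0026. Of all tested genes, 48.3% were positive in C4-2B and 49.4% in 22RV1.

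**Figure D2:**
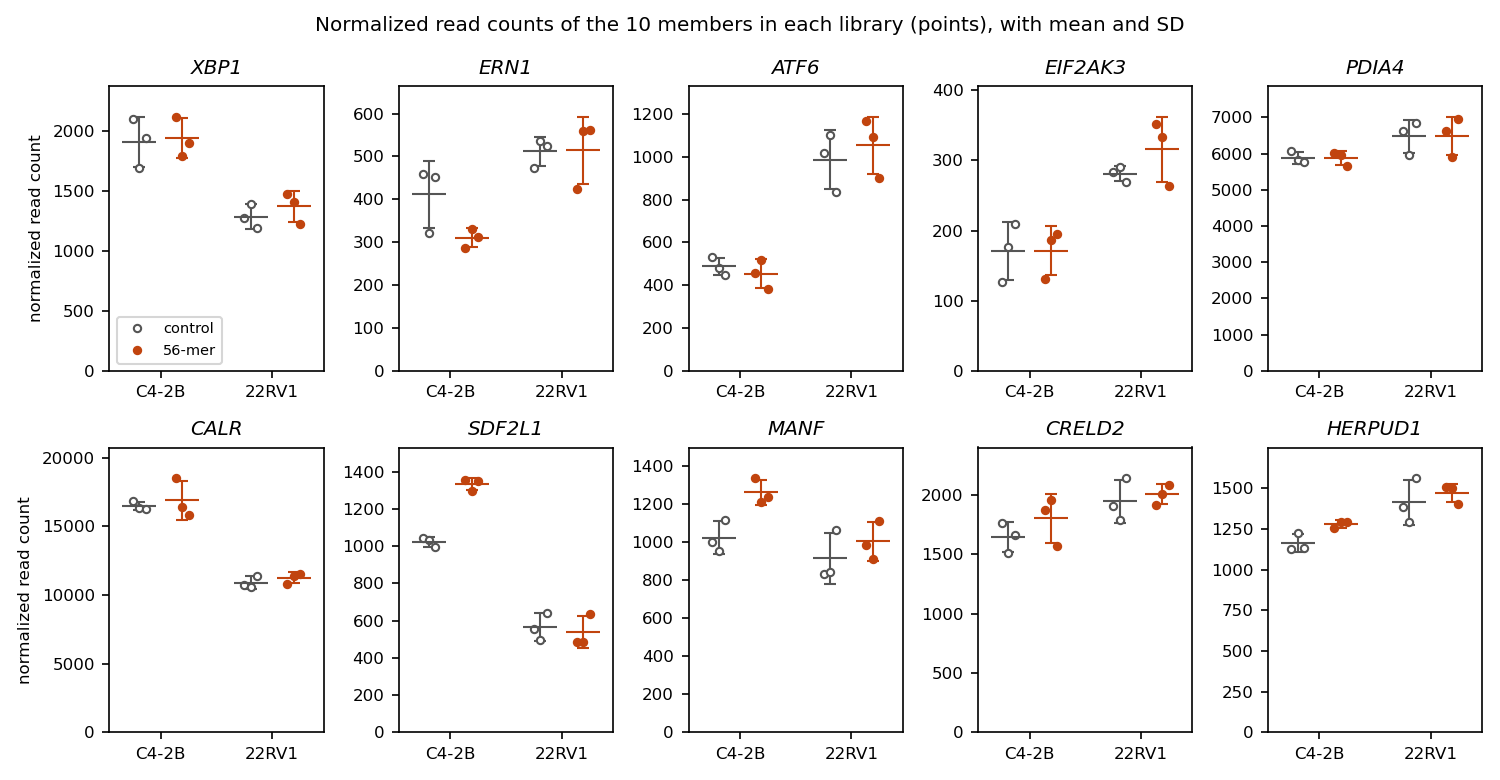
Normalized read counts (vertical axis from 0, a scale of its own per gene) of the 10 genes in every library, with open points for controls, filled points for 56-mer, and bars for the mean and SD of 3 libraries. The C4-2B points of SDF2L1 with 56-mer, 1298 to 1356, lie above its controls at 994 to 1045. The lines were normalized separately, so levels are to be compared within a line.

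Among the folding genes, SDF2L1 had the largest difference in C4-2B. SDF2L1 binds ER co-chaperones of the DNAJB11 type and helps keep substrates from aggregating. Its normalized read counts in C4-2B were 1045, 1036 and 994 in the controls and 1356, 1298 and 1349 with 56-mer. Every library with 56-mer lay above every control, and the gap between the groups was wider than the range within either. The means were 1025 ± 27.3 and 1335 ± 31.5 (SD, n = 3), a ratio of 1.30, and the log2 change was 0.38 ± 0.098 (SE, 95% interval 0.18 to 0.58). The limma adjusted p over all genes was 0.234 (unadjusted 0.000644), so the gene did not pass. DESeq2 on the recovered reads gave an adjusted p of 0.0176 and edgeR 0.410 for the same gene. The authors' deposited table gives SDF2L1 a log2 change of 0.38 with a standard error of 0.10, an unadjusted p of 0.000172 and an adjusted p of 1.0.

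SDF2L1 is short, with 1099 bases of exon, and rich in G and C, at 65.5% of its longest transcript. Among the 10457 genes compared in C4-2B, the fitted change correlated with GC content (Spearman rho 0.241) and with exon length (rho −0.282). After each library's trend with GC content and length was removed, a setting chosen after the data were seen, the log2 change of SDF2L1 was 0.27 (limma adjusted p = 0.376). Without the C4-2B 56-mer 1 library it was 0.37 (limma adjusted p = 0.0815). With any other C4-2B library left out instead, the limma adjusted p was higher, from 0.369 (without 56-mer 3) to 0.769 (without control 3).

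In 22RV1 the SDF2L1 groups were not separated. Its values were 557, 495 and 643 in controls and 488, 486 and 636 with 56-mer, so the groups overlapped over nearly their whole range. The log2 change was −0.077 ± 0.12 (95% interval −0.32 to 0.17, limma adjusted p = 0.9996). In each 22RV1 group the highest value came from the library with the highest correlation with GC content. These libraries were control 3 (rho 0.297) and 56-mer 3 (rho 0.378). In C4-2B this was not so. There the highest SDF2L1 values came from control 1 (rho −0.197) and 56-mer 1 (rho −0.177). The highest rho were those of control 2 (−0.0049) and 56-mer 3 (0.318). The part of GC content in the values of either line was not tested beyond the correction above. The difference between the lines in the change with 56-mer, 22RV1 minus C4-2B, was −0.46 ± 0.16 on the log2 scale (95% interval −0.80 to −0.12). The limma adjusted p was 0.546 (unadjusted 0.0107), so the difference did not pass. After the GC and length correction the difference was −0.29 (adjusted p = 0.641).

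MANF had the next largest positive difference in C4-2B. Its values were 998, 951 and 1117 in controls and 1335, 1209 and 1234 with 56-mer. The groups did not overlap, with control 3 the nearest to the treated libraries. The means were 1022 ± 85.7 and 1259.5 ± 67.0 (SD, n = 3), and the log2 change was 0.30 ± 0.10 (95% interval 0.090 to 0.52, limma adjusted p = 0.410, unadjusted 0.00706). With DESeq2 the adjusted p was 0.126. In 22RV1 the values were 831, 844 and 1065 in controls and 984, 913 and 1111 with 56-mer, which overlapped. The log2 change there was 0.14 ± 0.10 (−0.064 to 0.34), and the difference between the lines was −0.16 ± 0.15 (−0.48 to 0.15, limma adjusted p = 0.816), an interval that holds both no difference and one as large as the C4-2B change itself.

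HERPUD1 was the remaining gene without overlap in C4-2B. Its values were 1128, 1225 and 1129 in controls and 1253, 1295 and 1293 with 56-mer. Control 2 lay close below the lowest treated library. The log2 change was 0.14 ± 0.097 (95% interval −0.058 to 0.34, limma adjusted p = 0.692). In 22RV1 the values were 1383, 1291 and 1562 in controls and 1509.6, 1498 and 1405 with 56-mer, within the range of the controls throughout. SDF2L1, MANF and HERPUD1 were thus the 3 of 10 members whose C4-2B libraries with 56-mer all lay above the controls, where 7.59% of all tested genes did, and 0 lay below, where 7.08% did. In 22RV1 0 of the 10 were without overlap in either direction, where 4.45% of all tested genes were above, 4.58% below and 9.03% either. SDF2L1 and HERPUD1 hold the exact ERSE-II shown above, whereas the MANF window holds no exact match to either pattern. XBP1, CALR and CRELD2, which hold an exact ERSE, overlapped between the groups in C4-2B. A link between these patterns and the change with 56-mer was not tested. Near matches were not searched.

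The upstream sequences of SDF2L1 and MANF, the pair of members with the largest positive differences in C4-2B, are given as the 250 bases before the start site on the plus strand of GRCh38.p14, with CCAAT boxes of either strand in capitals.
SDF2L1, chr22:21642052-21642301: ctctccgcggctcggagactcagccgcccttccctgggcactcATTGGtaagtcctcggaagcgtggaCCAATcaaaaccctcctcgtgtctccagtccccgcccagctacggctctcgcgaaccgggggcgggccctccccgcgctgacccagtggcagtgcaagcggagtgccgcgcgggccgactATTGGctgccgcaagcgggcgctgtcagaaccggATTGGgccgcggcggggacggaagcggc
MANF, chr3:51385041-51385290: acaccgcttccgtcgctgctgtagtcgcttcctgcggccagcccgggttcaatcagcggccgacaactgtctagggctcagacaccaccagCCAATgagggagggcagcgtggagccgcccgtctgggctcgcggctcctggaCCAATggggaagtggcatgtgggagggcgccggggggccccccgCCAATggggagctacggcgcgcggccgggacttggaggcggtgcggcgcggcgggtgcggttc

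The most abundant folding genes differed little between groups. CALR ranged from 16248 to 16809 in C4-2B controls and from 15805 to 18514 with 56-mer, with the highest value in 56-mer 1. Its log2 change was 0.033 ± 0.059 (95% interval −0.089 to 0.16), and without 56-mer 1 it was −0.034. In 22RV1 CALR ranged from 10551 to 11414 and from 10801 to 11551, with a log2 change of 0.047 ± 0.052 (−0.058 to 0.15). PDIA4 had log2 changes of −0.0020 ± 0.066 (−0.14 to 0.13) in C4-2B and 0.0041 ± 0.063 (−0.12 to 0.13) in 22RV1. CRELD2 ranged from 1515 to 1767 in C4-2B controls and from 1570 to 1961 with 56-mer, with a log2 change of 0.12 ± 0.098 (−0.078 to 0.33), and had 0.046 ± 0.079 (−0.11 to 0.21) in 22RV1. CALR shares 270 of its 2714 exon bases with the antisense transcript AC092069.1, CRELD2 168 bases with ALG12 on the other strand, and EIF2AK3 up to 781 bases with antisense transcripts. Whether the counting used strand is not given, so reads in those stretches cannot be assigned with certainty.

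Of the sensors, ERN1 had the largest difference, in the negative direction and in C4-2B. Its values were 459, 322 and 453 in controls and 287, 332 and 312 with 56-mer. Control 2 lay among the treated libraries, and controls 1 and 3 lay above all of them. The means were 411 ± 77.8 and 310.3 ± 22.4 (SD, n = 3), and the log2 change was −0.39 ± 0.17 (95% interval −0.73 to −0.048, limma adjusted p = 0.507, unadjusted 0.0270). In 22RV1 the values were 474, 537 and 525 in controls and 425, 559 and 561 with 56-mer, with 56-mer 1 the lowest of the line. The log2 change there was −0.0017 ± 0.12 (−0.24 to 0.24), and the difference between the lines was 0.39 ± 0.21 (−0.055 to 0.83, limma adjusted p = 0.674).

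XBP1, the substrate of IRE1, was counted in C4-2B at 2095, 1688 and 1937 in the controls and at 2119, 1794 and 1899.9 with 56-mer, in normalized reads. The groups covered nearly the same range, and the log2 change was 0.025 ± 0.096 (95% interval −0.17 to 0.22, limma adjusted p = 0.962). In 22RV1 XBP1 had 1269.9, 1393 and 1191 in controls and 1477, 1410.1 and 1226 with 56-mer, with a log2 change of 0.092 ± 0.089 (−0.087 to 0.27). ATF6 ranged from 449.8 to 532 in C4-2B controls and from 383 to 518 with 56-mer (log2 change −0.11 ± 0.15, −0.41 to 0.19). Its values in 22RV1 were 833 to 1102 and 902 to 1164 (0.097 ± 0.10, −0.11 to 0.30). EIF2AK3 was the least precise member, with 126 to 209 in C4-2B controls and 131 to 196 with 56-mer. Its log2 change, with the widest interval of the 10 in each line, was 0.014 ± 0.23 (−0.47 to 0.50) in C4-2B and 0.16 ± 0.14 (−0.13 to 0.45) in 22RV1.

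**Figure D3:**
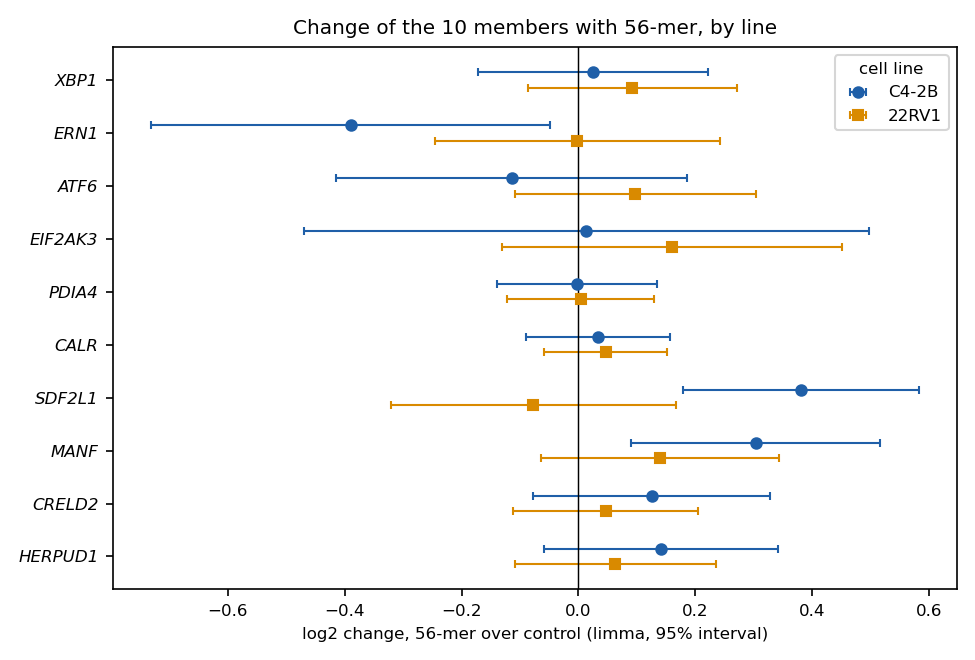
Fitted log2 change with 56-mer over control (horizontal axis) for the 10 genes, as limma estimates with 95% intervals, C4-2B as circles and 22RV1 as squares. The C4-2B intervals of SDF2L1 (0.18 to 0.58), MANF (0.090 to 0.52) and ERN1 (−0.73 to −0.048) lie off 0 before adjustment over all genes, and every 22RV1 interval spans 0.

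For the difference between the lines in the change with 56-mer, 0 of the 10 genes passed in limma and 0% of all 15527 genes did. At an unadjusted p under 0.05 there was 1 of the 10, SDF2L1, where 7.9% of all genes had one. With edgeR 0 members passed, where 0.00644% of all genes did, and with DESeq2 0 members, where 0.0258% did. At an unadjusted p under 0.05 each tool had 1 member, SDF2L1, beside 8.05% of all genes with edgeR and 8.51% with DESeq2, which gave SDF2L1 no adjusted p.

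The wider pathway was described with 7 lists that hold 153 further genes. Of these, 148 were tested in C4-2B and 1 passed in limma, CHAC1, a glutathione-degrading enzyme induced downstream of ATF4. In C4-2B it rose from 1539 ± 92.4 to 2199 ± 93.4 normalized read counts (SD, n = 3), a log2 change of 0.52 ± 0.088 with a limma adjusted p of 0.0241. In 22RV1 its log2 change was −0.032 ± 0.18 (limma adjusted p = 0.9996). The C4-2B call was lost with edgeR (adjusted p = 0.116), with plain variance (0.591) and without any of C4-2B controls 1 to 3, 56-mer 2 or 56-mer 3 (0.091 to 0.457). At an unadjusted p under 0.05 there were 13 of the 148, or 8.78%, close to the 8.92% of all tested genes. In 22RV1 0 of 149 passed in limma, and 5 (3.36%) had an unadjusted p under 0.05. The median log2 change of these genes was 0.030 in C4-2B and 0.019 in 22RV1, against −0.011 and −0.0026 over all tested genes.

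List by list, counts include any of the 10 members. The ER chaperones and co-chaperones were positive in 19 of 26 in C4-2B, with a median log2 change of 0.092, and in 15 of 26 in 22RV1, with 0.0083. BiP (gene HSPA5) had 0.087 ± 0.065 in C4-2B and 0.012 ± 0.056 in 22RV1, and HSP90B1 0.043 ± 0.057 and 0.064 ± 0.056. HYOU1 had −0.0070 ± 0.084 and −0.050 ± 0.067, and DNAJB9 −0.14 ± 0.22 and 0.015 ± 0.15. The gene of this list with the smallest p outside the members was CDNF, a relative of MANF, in C4-2B, at 68.1 ± 21.0 in controls and 35.4 ± 17.3 with 56-mer (log2 change −0.97 ± 0.42, limma adjusted p = 0.510). In 22RV1 it was SIL1, an exchange factor for BiP, with −0.31 ± 0.13. None of them passed.

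Folding enzymes and degradation factors were split in sign. The disulfide and glycoprotein folding enzymes had 12 positive and 12 negative changes in C4-2B (median 0.0027) and 14 and 10 in 22RV1 (0.012). TXNDC11, a thioredoxin-domain protein of the ER, had the smallest p in C4-2B, with a log2 change of 0.45 ± 0.14 (limma adjusted p = 0.382), and UGGT2, of the family that re-tags unfolded glycoproteins for calreticulin, in 22RV1, with −0.37 ± 0.18. ER-associated degradation had 16 positive and 13 negative in C4-2B (median 0.048), and 18 and 11 in 22RV1 (0.036). HERPUD2, the paralogue of HERPUD1, had a log2 change of −0.62 ± 0.22 in C4-2B (limma adjusted p = 0.446), the opposite sign to HERPUD1, and DERL2, a channel component, −0.28 ± 0.13 in 22RV1. EDEM1 had −0.29 ± 0.15 in C4-2B and −0.10 ± 0.11 in 22RV1.

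The sensor and transcription factor list had 8 positive and 6 negative changes in C4-2B (median 0.019) and 11 and 4 in 22RV1 (0.070). ATF4 had 0.029 ± 0.065 and 0.070 ± 0.062, and CREBRF, a regulator of CREB3 factors, had −0.45 ± 0.24 in C4-2B, the smallest p of the list outside the members. Targets of the PERK and ATF4 branch had 9 positive and 5 negative in each line, with medians of 0.052 and 0.059. In this list DDIT3 had −0.039 ± 0.10 in C4-2B and 0.080 ± 0.11 in 22RV1, and PPP1R15A 0.016 ± 0.22 and 0.13 ± 0.12. ASNS, the asparagine synthetase, had the smallest p in 22RV1, with 0.51 ± 0.19 (limma adjusted p = 0.9996).

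Genes of protein entry into and exit from the ER had medians near 0. The translocation and signal peptide list had 18 of 29 positive in C4-2B and 21 of 29 in 22RV1, with a median of 0.029 in both. SEC61B, a subunit of the translocation channel, had 0.21 ± 0.092 in C4-2B and DAD1, a subunit of the glycosylation enzyme, 0.23 ± 0.10 in 22RV1, neither past the threshold. The ER to Golgi list had 13 of 24 positive in C4-2B and 14 of 24 in 22RV1, with medians of 0.013 and 0.0067. SEC24D, a cargo adaptor of the vesicle coat, had −0.80 ± 0.26 in C4-2B (limma adjusted p = 0.397) and SEC23A, its coat partner, 0.16 ± 0.099 in 22RV1. In limma 0 of 9 luminal markers passed in either line, with 2 and 1 at an unadjusted p under 0.05. Of the leukocyte, endothelial and fibroblast markers 0 of 3 passed in C4-2B and 0 of 5 in 22RV1, with 0 at an unadjusted p under 0.05.

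**Figure D4:**
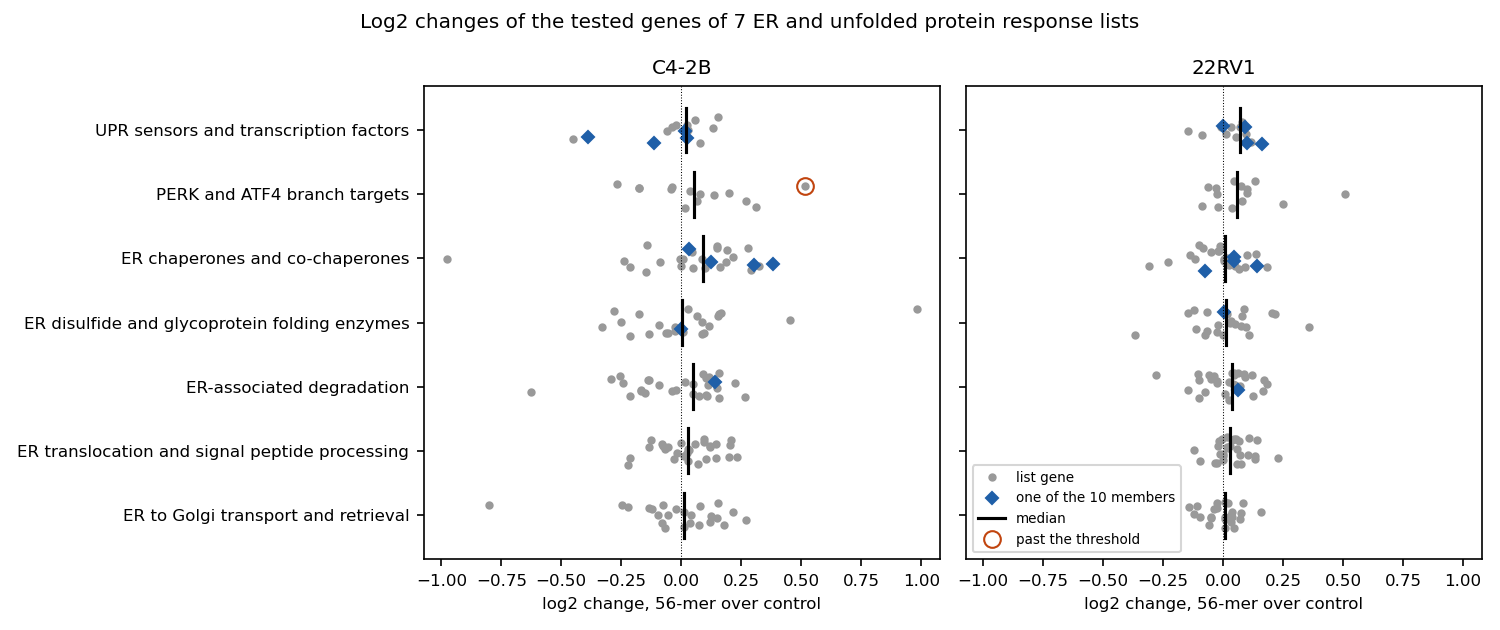
Log2 change with 56-mer over control (horizontal axis) of every tested gene in the 7 pathway lists, C4-2B on the left and 22RV1 on the right, with diamonds for the 10 members, bars for list medians and a ring for a gene past the threshold. The medians lie between 0.0027 and 0.092 in C4-2B and between 0.0067 and 0.070 in 22RV1, and the ring marks CHAC1.

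Within groups, the folding members varied together from library to library. Each value was taken as log2 of the normalized read count plus 1, minus the mean of its own group of 3, over the 12 libraries. All 15 pairs among PDIA4, HERPUD1, MANF, CRELD2, SDF2L1 and CALR had a positive Pearson r, from 0.10 to 0.77 with a median of 0.48. The strongest pairs were PDIA4 with SDF2L1 (0.77) and SDF2L1 with MANF (0.72). HERPUD1 followed the other 5 least (r = 0.26 with their mean), and PDIA4 most (0.76). The 24 pairs between these genes and XBP1, ERN1, ATF6 or EIF2AK3 were mostly negative, with a median of −0.25. The lowest was EIF2AK3 with CALR, at −0.75. Among the 4 genes XBP1, ERN1, ATF6 and EIF2AK3 the r ranged from −0.20 to 0.51, the highest for XBP1 with ATF6. The mean deviation of the folding members ranged from −0.115 to 0.145 in 22RV1 libraries and from −0.056 to 0.052 in C4-2B libraries. The r over the 12 libraries thus rest more on 22RV1, and r of the pairs by line are not given here. The points share library depth and the trends with GC content and length described above. Among the folding members GC content is 47.9% in HERPUD1, 51.6% in MANF and 53.0% to 65.5% in PDIA4, CALR, CRELD2 and SDF2L1. Among the others it is 41.3% in ATF6, 41.5% in XBP1, 44.4% in EIF2AK3 and 50.8% in ERN1, and the part of GC content in these correlations was not tested.

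Genes were also ranked by their likeness to the mean of the 6 folding members. Among 9923 genes with a mean of at least 100 in both lines, the highest r over the 12 libraries belonged to DBI (0.95), RPS19BP1 (0.94), MAGEA6 (0.92), ENSA (0.92), IK (0.91), PPIH (0.90), the entry MIR1282 (0.90) and COPS9 (0.90). Of the 144 further genes of the 7 lists, 0 were among the 50 most alike, and list genes made up 1.45% of all genes compared, too small a share to read anything from that count. For XBP1 the 5 most alike were EIF5 (0.97), MRPL40 (0.95), PPFIBP1 (0.95), ANAPC4 (0.94) and PARG (0.93). These r were picked as the highest of all genes compared and are given as a description.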

How the data were processed

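Total RNA of 12 libraries was sequenced. Per the values and the submitters' processing notes, which name DESeq without a version, the authors deposited a normalized signal per gene, that is, read counts divided by 1 size factor per library, separately for each line. All nonzero values were whole multiples of 1 step per library within 0.01, so reads were recovered, with size factors of 0.732 to 1.18. The authors also deposited, per the file headers, comparison tables with a log2 fold change, its standard error, a Wald score, a p-value and an adjusted p-value. The aligner, read counter, genome build and gene annotation were not given in the sources used here. The 1 entry without a symbol held no reads and was left out.

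A gene was tested if 3 or more of the 6 libraries of a line reached a normalized count of 10. Tests used limma 3.58.1 (trend and robust variance, R 4.3.3) on log2 of the normalized count plus 1, two-sided, with Benjamini-Hochberg adjustment over all tested genes at 0.05. The difference between lines was 1 fit of the 12 libraries over genes tested in both. Alternatives were quantile and equal-total scaling, other filters and pseudocounts, plain variance, edgeR 4.0.16 and DESeq2 1.42.0 on recovered reads, and leaving out each library. A lowess correction (span 0.3) for GC content and exon length from GENCODE 29, which covers 91.6% of symbols, was added later. The fits were tested on simulated data. Named were all members, 8 pathway genes, list genes past the threshold and the gene with the smallest p per list and line. For pattern, the 8 genes most like the folding members and the 5 most like XBP1 were named. The members and lists were chosen with earlier results of these data known. ERN2, a listed gene, was not analysed here.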

Additional observations from a re-analysis of the deposited data

How the results depend on the processing

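No paired analysis was possible because no replicate number, culture or batch in the labels links a control to a treated library. The precision of single genes is set by 3 libraries per group and 8847368 to 13740386 reads each. The number of members past the threshold was 0 in both lines and for the difference between lines under all settings run, with 1 exception. This was SDF2L1 in C4-2B with DESeq2 on recovered reads (1 member, log2 change 0.38, adjusted p = 0.0176). For the difference, DESeq2 gave SDF2L1 no adjusted p, so this gene could not pass there. Levels between lines moved by less than the spread of the controls in all 70 comparisons. Most of these left out 1 of the 3 controls of a line, which always moves a mean by less than the SD of the 3. Those comparisons could not fail and are no test of the levels. Only the change of scale between RPM and normalized read counts could have given a larger move, and it did not for any of the 10 genes.

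Over all genes, limma called 11 in C4-2B, 2 in 22RV1 and 0 for the difference. In C4-2B the count was 42 with DESeq2, 34 with no filter, 21 after the GC and length correction, 1 with plain variance, 0 with edgeR (1343 at an unadjusted p under 0.05), and 0 to 81 with a library left out, 81 being without 56-mer 1 and 0 without any other. Quantile scaling gave 2 higher and 8 lower, and equal totals 4 higher and 7 lower, against 8 higher and 3 lower. In 22RV1 it was 11 with no filter, 8 after the correction, 0 with plain variance and 0 to 13 with a library left out, 13 being without 56-mer 3. For the difference it was 5 with no filter and after the correction, 4 with DESeq2, 1 with edgeR, quantile scaling or plain variance, and 0 to 11 with a library left out, 11 being without C4-2B 56-mer 1.

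Some values near 0 changed sign, and the cause was not tested. In C4-2B these were, on the log2 scale, with equal totals XBP1 (−0.016), EIF2AK3 (−0.027), CALR (−0.0080), ATF4 (−0.012) and PPP1R15A (−0.025), with quantile scaling XBP1 (−0.034), CALR (−0.032), HSP90B1 (−0.063) and ATF4 (−0.056), after the correction CALR (−0.023), ATF4 (−0.043) and PPP1R15A (−0.048), with edgeR PDIA4 (0.00021), and with DESeq2 PPP1R15A (−0.00080). In 22RV1 these were ERN1 with DESeq2 (0.0054), edgeR (0.0047) and the correction (0.0019), PDIA4 and HSPA5 with equal totals (−0.012 and −0.0046) and quantile scaling (−0.0025 and −0.0073), and DNAJB9 after the correction (−0.00098) and with equal totals (−0.0012). For the difference these were PDIA4 (−0.018) and CALR (−0.017) with DESeq2.

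With each library left out in turn, log2 changes ranged as follows where a sign or a call changed. They were in C4-2B −0.060 to 0.096 for XBP1, −0.22 to 0.00085 for ATF6, −0.19 to 0.19 for EIF2AK3, −0.020 to 0.026 for PDIA4, −0.034 to 0.080 for CALR, −0.078 to 0.066 for HYOU1, −0.036 to 0.074 for ATF4, −0.14 to 0.043 for DDIT3, −0.15 to 0.12 for PPP1R15A and 0.47 to 0.56 for CHAC1. The range was in 22RV1 −0.070 to 0.13 for ERN1, −0.018 to 0.20 for ATF6, −0.055 to 0.070 for PDIA4, −0.21 to 0.020 for SDF2L1, −0.011 to 0.12 for CRELD2, −0.028 to 0.070 for HSPA5, −0.027 to 0.14 for HSP90B1, −0.14 to 0.11 for DNAJB9 and −0.0012 to 0.31 for PPP1R15A. It was for the difference between the lines −0.0037 to 0.15 for XBP1, −0.034 to 0.35 for EIF2AK3, −0.053 to 0.072 for PDIA4 and −0.033 to 0.081 for CALR. ERN1 in C4-2B kept its sign, at −0.56 to −0.30. For the difference so did ERN1 (0.30 to 0.56) and SDF2L1 (−0.59 to −0.36). The members that follow kept their sign but moved by over 1.5 times from the value with all libraries. In C4-2B this was CRELD2 (0.061 without 56-mer 2 to 0.22 without 56-mer 3). In 22RV1 they were XBP1 (0.036 without 56-mer 1 to 0.17 without 56-mer 3), EIF2AK3 (0.078 to 0.29, the same libraries), MANF (0.063 without 56-mer 3 to 0.26 without control 3), CALR (0.024 without control 2 to 0.081 without control 3) and HERPUD1 (0.00050 to 0.14, the same controls). For the difference they were ATF6 (0.096 without 22RV1 control 3 to 0.32 without 22RV1 56-mer 3), MANF (−0.24 without 22RV1 56-mer 3 to −0.048 without 22RV1 control 3), CRELD2 (−0.18 without C4-2B 56-mer 3 to −0.0074 without 22RV1 control 3) and HERPUD1 (−0.14 without 22RV1 control 2 to −0.0043 without 22RV1 control 3). Other named genes did so too, in C4-2B DNAJB9 (−0.25 to −0.014) and HSP90B1 (0.010 to 0.062), and in 22RV1 ASNS (0.33 to 0.69), ATF4 (0.040 to 0.0996), DDIT3 (0.039 to 0.14), EDEM1 (−0.17 to −0.029), HYOU1 (−0.11 to −0.0085), SEC23A (0.094 to 0.23) and SIL1 (−0.37 to −0.20).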
